A study of Mus musculus with 2 samples.

Results

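The Ly49 and NKG2 family receptors are killer lectin receptors of lymphocytes. Among the 32285 genes counted, 10 of their genes, listed by symbol, were described here. The list was made with earlier results of these data known. The Ly49 genes were Klra1, Klra3, Klra4, Klra7, Klra8 and Klra9, and the NKG2 and related genes were Klrc1, Klrd1, Klre1 and Klrk1. Transcripts were counted in single cells of mouse prostate, in 1 library of tumour tissue and 1 library of normal tissue adjacent to the tumour. Sorted CD45+ leukocytes and CD45- cells went into the same channel, and their proportions were set by the sort. The sources used here give neither strain, genotype, age nor tumour model of the mice, nor whether both tissues came from 1 animal. With 1 library per tissue there were no replicates and no test between tissues was possible. Every 95% interval below covers counting error only, and the UMIs (unique molecular identifiers, each standing for 1 captured molecule) of a single cell are not independent.

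Ly49 receptors bind MHC class I molecules or viral look-alikes of them. Those encoded by Klra1 (Ly49A), Klra3 (Ly49C), Klra7 (Ly49G2) and Klra9 (Ly49I) carry an inhibitory motif that recruits phosphatases such as Ptpn6. Those of Klra4 (Ly49D) and Klra8 (Ly49H, which recognises the m157 protein of mouse cytomegalovirus) signal activation through the adaptor DAP12, encoded by Tyrobp. Klrc1 encodes NKG2A, an inhibitory receptor that pairs with CD94 (Klrd1) and binds Qa-1 (H2-T23). Klre1 encodes a partner of the Klri1 and Klri2 receptors, and Klrk1 encodes NKG2D, an activating receptor for stress-induced ligands that signals through DAP10 (Hcst). Each NK cell switches on its own subset of Ly49 genes, and the set of Ly49 genes differs between inbred strains.

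The starts of the Ly49 genes are alike, and 5 of them are shown because these 5 share an uninterrupted run of 11 bases. The stretches of 80 bases below come from RefSeq promoter windows on build GRCm38.p6 and are written 5′ to 3′ on the minus strand of chromosome 6, with the shared run TTTCCTCTTTT in capitals.
Klra4 at chr6:130067296-130067375: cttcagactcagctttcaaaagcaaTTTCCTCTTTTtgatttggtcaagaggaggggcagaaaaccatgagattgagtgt
Klra8 at chr6:130129924-130130003: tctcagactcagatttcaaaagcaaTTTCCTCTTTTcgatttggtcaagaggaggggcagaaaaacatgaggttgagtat
Klra9 at chr6:130193096-130193175: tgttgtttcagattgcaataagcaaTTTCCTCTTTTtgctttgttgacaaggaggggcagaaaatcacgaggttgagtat
Klra7 at chr6:130233357-130233436: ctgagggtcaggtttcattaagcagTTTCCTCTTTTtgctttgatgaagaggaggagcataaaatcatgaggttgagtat
Klra3 at chr6:130337591-130337670: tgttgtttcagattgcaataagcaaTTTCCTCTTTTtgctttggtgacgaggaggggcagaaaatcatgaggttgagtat
The run lies between 19 bases (Klra3) and 89 bases (Klra7) before the annotated gene start. On either strand it occurs in 49 of 32851 promoter windows (0.149%). Klra1, Klrc1, Klre1 and Klrk1 have windows without it, and Klrd1 has no entry in the table. In local alignments of the windows, Klra3 and Klra9 were 95.4% identical and the activating pair Klra4 and Klra8 86.6%, against 72.8 to 80.9% for the other pairs. A match of letters is a description and not a site of binding.

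Cells were gated on UMIs of genes other than these receptors, in 5 exclusive gates. The normal adjacent library (6553 barcodes, of which 6209 were kept) gave 314 NK cells, 37 Gzmc/Gzmf cells, 182 Cd7/Itgae cells, 287 CD8 T cells and 298 gamma delta T cells. The tumour library (8237 barcodes, 7768 kept) gave 243, 35, 202, 227 and 409. In each pair of values below the normal adjacent library comes first. Median UMIs per cell in these gates ran from 4669 to 11633, and 18 barcodes occurred in both libraries, of which 1 and 3 were in these gates. The gates held 36.6% and 33.5% of all receptor UMIs of kept cells. Cells left out for exceeding a limit on myeloid, B-cell, epithelial or stromal genes held from 30.3% and 37.5% of the Klra4 UMIs to 62.5% and 69.3% of the Klrk1 UMIs. B cells (241 and 158 cells) served as background for free RNA: 6.64% and 5.06% of them had a UMI of Klrd1, 3.32% and 3.80% of Klrk1, and at most 3.16% a UMI of any single Ly49 gene. Klra8 in B cells came from 2 cells with 21 UMIs in the normal adjacent library and 5 cells with 22 UMIs in the tumour library. Its B-cell level is therefore a poor measure of free RNA.

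The gates were checked against markers. Ncr1, the NK receptor NKp46, had a UMI in 86.6% and 86.0% of NK-gated cells, and Cd3e, a chain of the CD3 complex, in 3.50% and 0.823%. The Cd7/Itgae gate, which sets no T cell criterion, held mostly T cells by their genes: Cd3e was found in 63.7% and 73.8% of its cells and Trac in 62.1% and 71.8%. It is therefore called here by its 2 gating genes. The Gzmc/Gzmf gate was mixed, with Ncr1 in 59.5% and 62.9% and Cd3e in 48.6% and 40.0% of its cells. In the CD8 T gate the tumour library differed from the other in composition, since 111 of its 227 cells had a UMI of Prss2, a trypsinogen gene, against none of 287. Ighm, an immunoglobulin gene, reached 17661 CPM (summed UMIs of the gene scaled to a common total of UMIs per gate and library) in those 111 cells, 169 CPM in the other 116, and 5238 CPM in the 287 cells of the normal adjacent library, where 20.9% of cells had a UMI of it.

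Among the Ly49 genes, the activating pair was concentrated in NK-gated cells. Klra4 stood at 178 CPM (interval 162 to 195) and 241 CPM (219 to 265) in NK-gated cells, where 27.4% and 27.6% of cells had a UMI. In Cd7/Itgae cells it stood at 20.7 and 2.54 CPM, with a UMI in 4.95% and 0.990% of cells. Klra8 followed the same order, at 186 CPM (170 to 204) and 220 CPM (198 to 242) in NK-gated cells and at 45.7 and 11.7 CPM in Cd7/Itgae cells. NK-gated cells thus stood above Cd7/Itgae cells in both libraries for both genes, with intervals that did not overlap. In CD8 T and gamma delta T cells no more than 2.44% had a UMI of either gene, and no level there had an interval above that of B cells in the same library. For Klra8 the B-cell level came from 2 and 5 cells, so that comparison cannot tell low expression from free RNA. In the normal adjacent library 2.44% of CD8 T cells and 0.830% of B cells had a Klra8 UMI.

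The inhibitory Ly49 genes were spread otherwise. Klra1 was low in NK-gated cells, at 17.7 CPM (12.9 to 23.8) and 19.0 CPM (13.2 to 26.6), and high in Cd7/Itgae cells, at 193 CPM (173 to 214) and 294 CPM (271 to 319). Its UMIs were found in 5.10% and 4.12% of NK-gated cells against 30.2% and 44.6% of Cd7/Itgae cells. In the Gzmc/Gzmf gate Klra1 stood at 155 CPM (122 to 193) and 116 CPM (86.0 to 153), and in gamma delta T cells at 76.6 and 42.0 CPM. Klra7 was also highest in Cd7/Itgae cells, at 347 and 440 CPM, followed by the Gzmc/Gzmf gate at 296 and 294 CPM and NK-gated cells at 148 and 164 CPM. In the normal adjacent library the Cd7/Itgae and Gzmc/Gzmf intervals overlapped for Klra7 and for Klra1. Klra3 was highest in NK-gated cells, at 91.3 and 118 CPM, with 45.7 and 67.1 CPM in Cd7/Itgae cells. Klra9 differed little between these gates, at 115 and 93.5 CPM in NK-gated cells and 131 and 124 CPM in Cd7/Itgae cells, and the intervals overlapped in the normal adjacent library and met at 109 CPM in the tumour library.

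**Figure D1:**
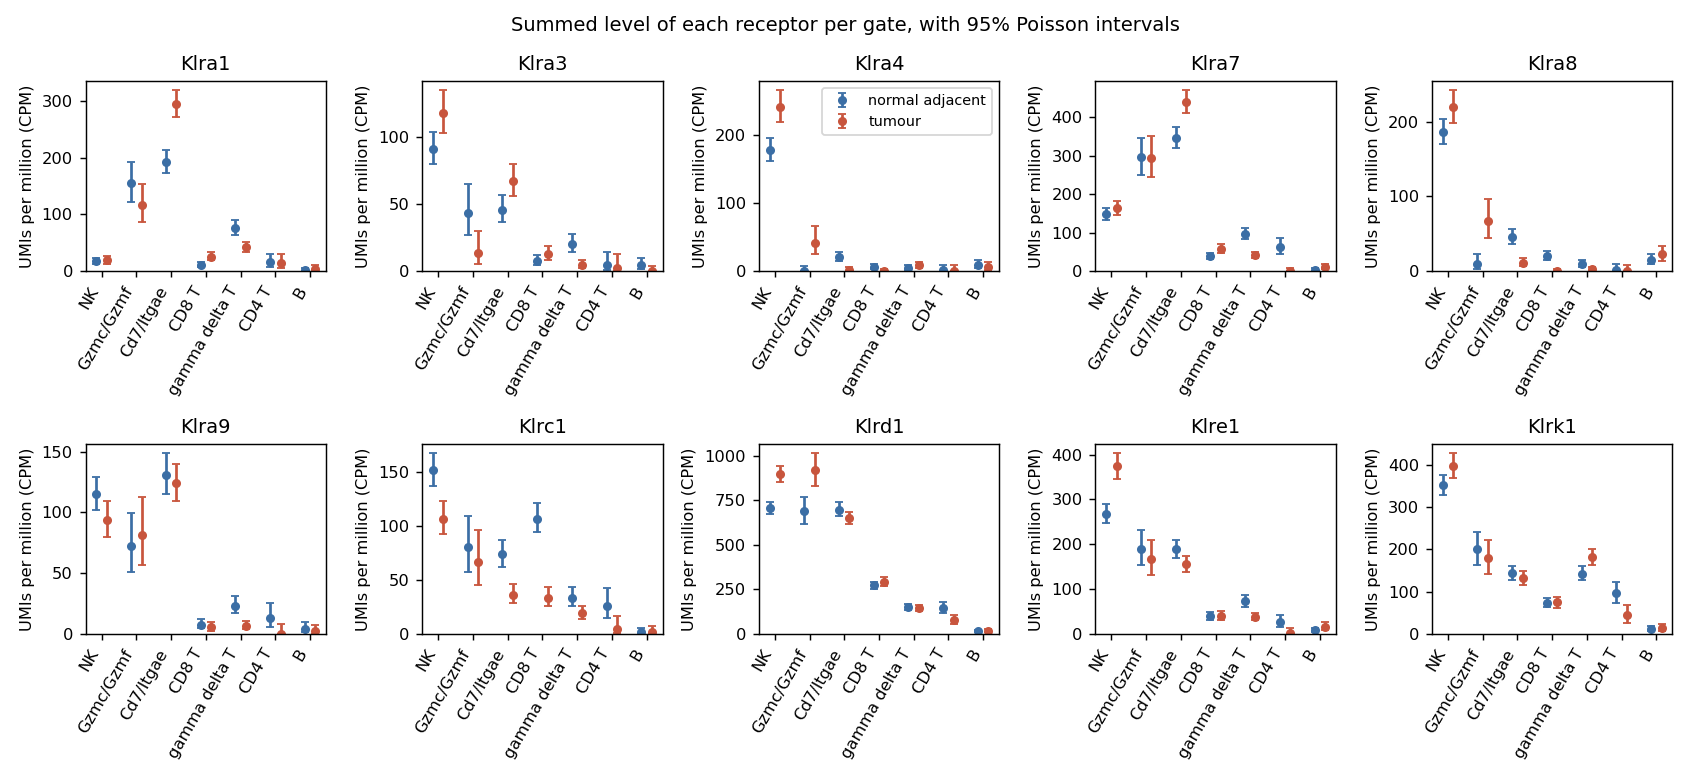
CPM from summed UMIs (linear axes that start at 0 and differ between panels) of the 10 receptor genes in 7 gates of the normal adjacent (blue) and tumour (red) library, with 95% Poisson intervals. Klra4 and Klra8 peak in the NK gate, and Klra1 and Klra7 in the Cd7/Itgae gate, where their intervals overlap those of the Gzmc/Gzmf gate in the normal adjacent library.

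The makeup of the Ly49 UMIs showed the same contrast. Of 1830 and 1527 Ly49 UMIs in NK-gated cells, 49.5% (47.1 to 51.8) and 53.9% (51.4 to 56.4) came from Klra4 and Klra8 together, and 22.5% and 21.3% from Klra1 and Klra7. Of 1441 and 1847 Ly49 UMIs in Cd7/Itgae cells, 8.47% (7.08 to 10.0) and 1.52% (1.01 to 2.18) came from Klra4 and Klra8, and 69.0% and 78.2% from Klra1 and Klra7. Gamma delta T cells had 75.0% and 78.5% of their 424 and 242 Ly49 UMIs from Klra1 and Klra7. The Gzmc/Gzmf gate had 78.2% and 66.8% from that pair, but there 1 of 35 tumour cells held 58.6% of the Klra8 UMIs. In CD8 T cells the Klra4 and Klra8 share was 28.2% of 220 UMIs and 1.59% of 189 UMIs, and the 48 Klra8 UMIs of the normal adjacent library came from 7 cells.

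**Figure D2:**
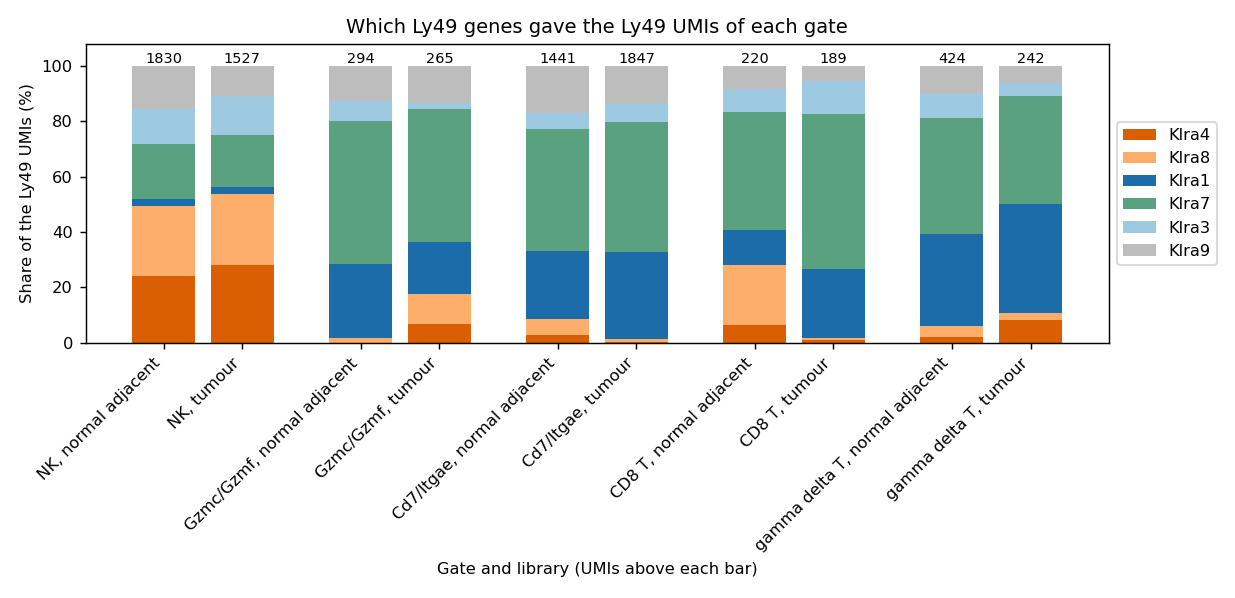
Share (%) of the Ly49 UMIs of each gate and library that came from each of 6 Ly49 genes, with the number of Ly49 UMIs above each bar. Orange shades (Klra4, Klra8) fill 49.5% and 53.9% of the NK bars and 8.47% and 1.52% of the Cd7/Itgae bars.

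The NKG2 and related genes were found across the NK-gated, Gzmc/Gzmf and Cd7/Itgae cells. Klrd1, the CD94 chain, had a UMI in 92.4% and 90.5% of NK-gated cells, 89.2% and 91.4% of Gzmc/Gzmf cells, 84.1% and 88.1% of Cd7/Itgae cells and 46.0% and 52.0% of CD8 T cells. Klrk1, the NKG2D gene, was highest in NK-gated cells, at 352 and 398 CPM and in 81.2% and 80.7% of cells. Gamma delta T cells had 143 and 181 CPM of it and a UMI in 37.2% and 47.7% of cells, against 73.3 and 74.6 CPM in CD8 T cells. Klre1 stood at 268 and 374 CPM in NK-gated cells, 189 and 156 CPM in Cd7/Itgae cells and 39.4 and 40.9 CPM in CD8 T cells. Klrc1, the NKG2A gene, had a UMI in 45.2% and 39.1% of NK-gated cells, and in CD8 T cells in 41.1% and 17.6%. These shares depend on depth: with every cell thinned to 2000 UMIs, the expected share with Klrk1 was 48.3% and 52.5% in NK-gated cells and 1.20% and 1.53% in B cells.

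**Figure D3:**
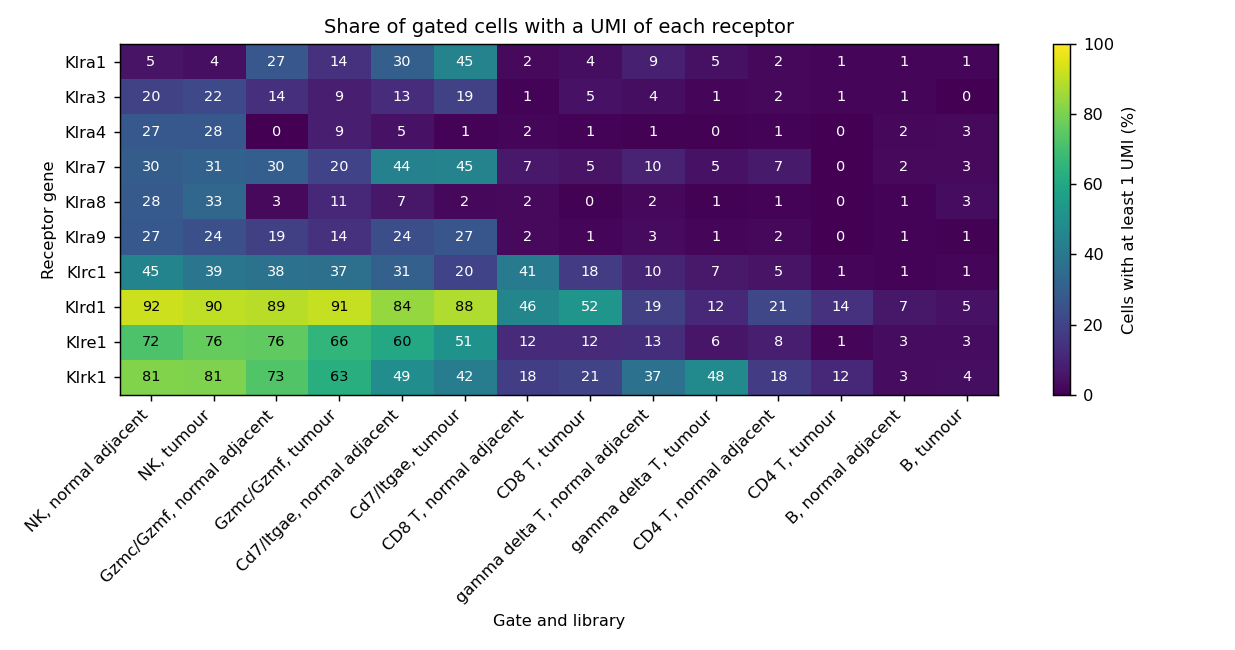
Share (%) of cells with at least 1 UMI of each receptor (rows), by gate and library (columns), all UMIs used. B cells, on the right, give the background: their highest value is the 6.64% for Klrd1 in the normal adjacent library.

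NK-gated cells with and without a UMI of Eomes, a transcription factor of mature NK cells, differed in most receptors. This division was chosen after the data were seen, and Eomes together with Prf1 was itself 1 way into the gate. Eomes UMIs were found in 136 of 314 (43.3%) and 112 of 243 (46.1%) cells. The Eomes-positive cells had any Ly49 UMI in 94.9% and 92.9% of cells, and the others in 27.5% of cells in each library. Klra4 was 13.3-fold (10.1 to 17.8) and 14.2-fold (10.5 to 19.6) higher in CPM in the Eomes-positive cells, and Klra8 9.05-fold (7.15 to 11.6) and 11.1-fold (8.33 to 15.1) higher. Klra3, Klra7 and Klra9 were 3.72 to 5.69-fold higher, and the scarce Klra1 2.75-fold (1.46 to 5.29) and 8.30-fold (3.37 to 24.5) higher. Klrd1 was found in 90.4% and 91.1% of Eomes-positive cells and in 93.8% and 90.1% of the others, and its CPM ratio was 0.998 (0.901 to 1.10) and 0.852 (0.766 to 0.947).

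Klrc1 ran the other way, at 112 and 63.8 CPM in Eomes-positive cells and 171 and 131 CPM in the others, a ratio of 0.654 (0.510 to 0.831) and 0.486 (0.335 to 0.690). Other genes followed the division too. In the Eomes-negative cells Itga1, the CD49a integrin, had a UMI in 55.1% and 59.5% against 8.09% and 6.25% of Eomes-positive cells, and Gzmc in 74.2% and 76.3% against 26.5% and 12.5%. Gzma, a granzyme of mature NK cells, had a UMI in 87.5% and 83.9% of Eomes-positive cells against 32.6% and 20.6%. The Eomes-positive cells were shallower, with a median of 5154 and 4401 UMIs against 8758 and 7901, so their higher Ly49 detection was not accompanied by higher depth.

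In the Cd7/Itgae gate Klra1 was found in cells with transcripts of Cd3 chains. Cells with a sum of at least 2 UMIs of Cd3d, Cd3e and Cd3g were 155 of 182 and 179 of 202, and Klra1 had a UMI in 35.5% and 50.3% of them. Trac had a UMI in 72.3% and 79.3% of these cells and Ncr1 in 29.7% and 24.6%. The cells with a lower sum, 27 and 23, are those left after the NK gate, which came first and takes only cells with a low Cd3 sum. The criteria of both gates were met by 74 and 59 cells. None of the 27 and 23 cells had a Klra1 UMI. At 3 counts of the total this allows a share of cells with a UMI of up to 11.1% and 13%, and the Clopper-Pearson intervals reach 12.8% and 14.8%. Klra7 had a UMI in 49.0% and 49.2% of the first cells and in 14.8% and 8.70% of the second, and its CPM was 3.42-fold (2.29 to 5.32) and 4.64-fold (2.98 to 7.63) higher. Klrd1 had a UMI in 84.5% and 88.8% of the first cells and 81.5% and 82.6% of the second, with CPM ratios of 1.15 (0.966 to 1.39) and 0.776 (0.657 to 0.923).

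**Figure D4:**
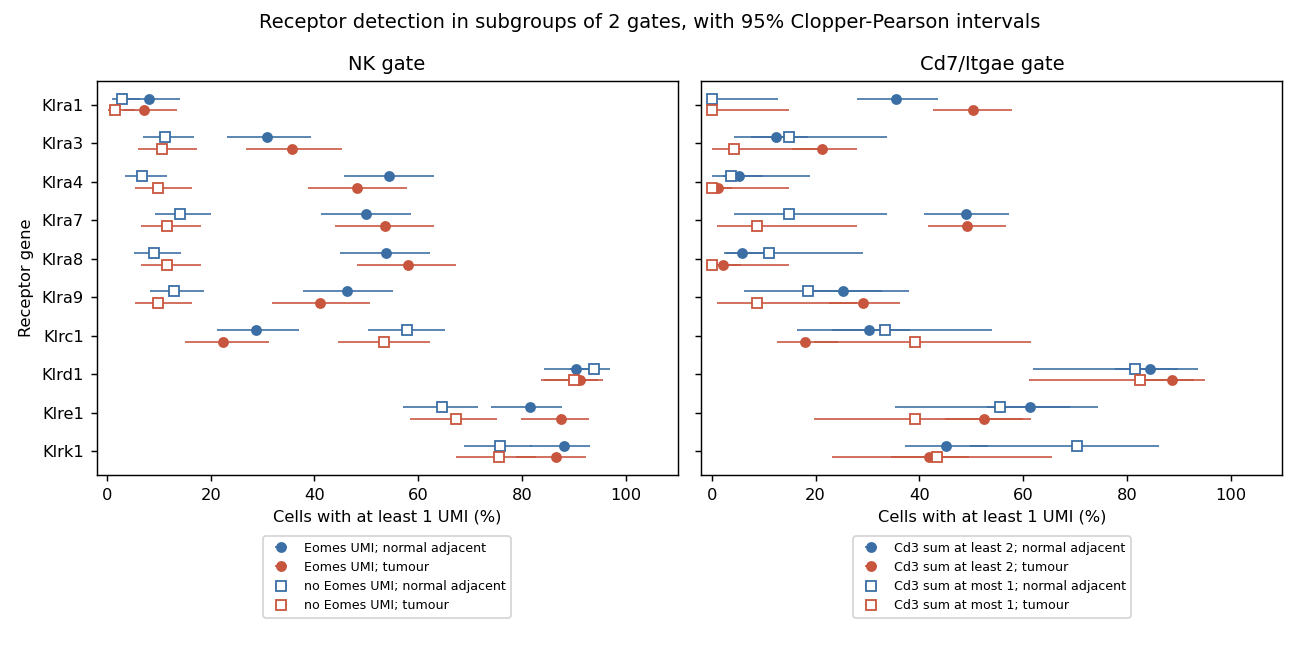
Share (%) of cells with at least 1 UMI of each receptor, with 95% Clopper-Pearson intervals, in subgroups of 2 gates (filled circles against open squares) of the normal adjacent (blue) and tumour (red) library. In the NK gate the 6 Ly49 genes are found more often in Eomes-positive cells and Klrc1 less often, and in the Cd7/Itgae gate Klra1 is found in cells with a Cd3 sum of at least 2 and in none of the others.

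Single cells often had transcripts of several Ly49 genes. Reads may not tell all of them apart: of the 91-base windows in the last 500 bases of the transcripts, 11.8% for Klra9 (Klra3 and Klra8 among the matches), 6.27% for Klra7 and 4.85% for Klra3 (Klra9 among the matches) also match another Klr gene. No such window of Klra1, Klra4 or Klra8 does. Among NK-gated cells of the normal adjacent library, 38 had UMIs of 1 Ly49 gene, 68 of 2, 37 of 3, 28 of 4 and 7 of 5. In the tumour library 34 had 1, 36 had 2, 46 had 3, 20 had 4, 3 had 5 and 1 had all 6. Cells with at least 2 made up 44.6% and 43.6% of NK-gated cells and 43.4% and 46.5% of Cd7/Itgae cells. They were 4.18% and 3.52% of CD8 T cells and 7.38% and 3.91% of gamma delta T cells. These shares use all UMIs, and Cd7/Itgae cells were deeper than NK-gated cells. At 2000 UMIs per cell the expected shares with at least 2 were 34.0% and 35.4% of NK-gated cells and 25.1% and 29.9% of Cd7/Itgae cells.

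The pairs found together differed by gate. In NK-gated cells Klra8 was found in 61.6% and 68.7% of Klra4-positive cells and in 15.8% and 19.3% of Klra4-negative cells, a difference of 45.8 percentage points (34.0 to 56.3) and 49.3 points (35.8 to 60.4). Klra7 was found in 61.6% and 55.2% of the Klra4-positive cells and 17.5% and 21.6% of the others. The NK gate mixes Eomes-positive and Eomes-negative cells, which differ in these genes. Klra4 was found in 54.4% and 48.2% of the Eomes-positive and 6.74% and 9.92% of the Eomes-negative cells. Klra8 was found in 53.7% and 58.0% against 8.99% and 11.5%. How much of the pairing in NK-gated cells follows from that mixture was not tested. In Cd7/Itgae cells Klra7 was found in 76.4% and 75.6% of Klra1-positive cells and 29.9% and 19.6% of Klra1-negative cells, a difference of 46.4 points (31.2 to 58.2) and 55.9 points (43.1 to 65.9). At 2000 UMIs per cell the expected differences were 33.7 and 45.1 points for the first of these pairs, Klra4 with Klra8, and 37.5 and 46.2 points for Klra1 with Klra7. Klra3 and Klra9, whose promoter windows are the most alike, were less clearly linked in NK-gated cells. Klra9 was found in 35.5% and 29.6% of Klra3-positive cells and 25.4% and 22.8% of the others, and the intervals of the difference, -2.08 to 23.5 and -5.46 to 21.1 points, included 0.

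Klrc1 was found less often where Ly49 was found. In NK-gated cells 28.7% and 24.3% of those with any Ly49 UMI had Klrc1, against 66.9% and 59.2% of those without, a difference of -38.3 points (-47.8 to -27.4) and -34.9 points (-45.9 to -22.6). This comparison overlaps with the Eomes division. Any Ly49 UMI was found in 94.9% and 92.9% of Eomes-positive cells and in 27.5% of Eomes-negative cells in each library. Klrc1 was found in 28.7% and 22.3% of Eomes-positive and 57.9% and 53.4% of Eomes-negative cells. The part of that division in the Klrc1 difference was not tested. The cells without Ly49 were deeper, with medians of 9248 and 8568 UMIs against 5377 and 4557. With all cells thinned to 2000 UMIs the expected difference was -14.9 and -10.2 points. In CPM, which does not need thinning, Klrc1 was 2.01-fold (1.60 to 2.55) and 1.84-fold (1.35 to 2.54) higher in the cells without Ly49. Cd7/Itgae cells gave 1.87-fold (1.31 to 2.65) and 1.73-fold (1.04 to 2.84), at median depths of 8720 and 8326 UMIs without Ly49 and 8145 and 8590 with it. In gamma delta T cells the shares ran the other way, with Klrc1 in 30.2% and 25% of Ly49-positive cells and 7.06% and 5.31% of the others. Those are shares with all UMIs used, without regard to depth, and the Ly49-positive cells were only 43 of 298 and 32 of 409. Klrd1, whose product pairs with NKG2A, was found in 137 of 142 and 85 of 95 Klrc1-positive NK-gated cells, but in 52.5% and 75.0% of Klrc1-positive CD8 T cells.

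The tumour library was then set against the normal adjacent library within each gate. None of the 10 receptors differed by 1.5-fold or more in NK-gated cells. Over all genes with at least 20 UMIs in that gate, 8.83% were at least 1.5-fold higher and 5.33% at least 1.5-fold lower in the tumour library. Below that size the receptors named next had intervals that left out 1, but the share of all genes with such intervals was not counted. The median log2 ratio was 0.21 over the receptors and 0.07 over all genes of the gate. Klre1 was 1.39-fold (1.25 to 1.56), Klra4 1.36-fold (1.19 to 1.55), Klra3 1.29-fold (1.07 to 1.57), Klrd1 1.27-fold (1.18 to 1.36), Klra8 1.18-fold (1.03 to 1.35) and Klrk1 1.13-fold (1.02 to 1.25) higher in the tumour library. Klrc1 was 1.42-fold (1.19 to 1.70) and Klra9 1.23-fold (1.01 to 1.5) lower. The shares of NK-gated cells with a UMI of these 8 genes had differences whose intervals included 0. The summed Ly49 level was 736 and 855 CPM, 1.16-fold higher (1.09 to 1.24), and that direction was lost when the limits on other lineages were lifted (log2 ratio -0.07, -0.16 to 0.02, against 0.22).

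In CD8 T cells Klrc1 had the widest difference in the share of cells with a UMI. It stood at 107 CPM (94.3 to 121) in the normal adjacent and 33.7 CPM (25.8 to 43.3) in the tumour library, 3.18-fold lower (2.39 to 4.27), and the share of cells with a UMI was 23.5 points lower (15.7 to 30.8). Klrc2, which encodes the activating receptor NKG2C, was 3.27-fold lower (2.46 to 4.41), but 21.5% of 91-base windows in the last 500 bases of the Klrc1 transcripts also match Klrc2, so that reads of the 2 may not be told apart. Klrc1 was 2.88-fold lower (2.04 to 4.19) when the tumour cells with Prss2 were left out. Gzma and Gzmc differed in the same direction as Klrc1: Gzma had a UMI in 44.9% and 14.1% of cells (1873 and 345 CPM), and Gzmc stood at 1688 and 444 CPM. In the normal adjacent library and in tumour cells without and with Prss2, Gzmb stood at 812, 814 and 595 CPM. Tbx21 stood at 97.8, 68.3 and 61.5 CPM in the same order. All 8 genes of the NK marker list, Gzma among them, had UMIs in both libraries. Their summed level was 3905 and 2369 CPM, of which Gzma gave 1873 and 345 CPM. Within that list Eomes stood at 72.0 and 80.7 CPM and Ncr1 at 12.7 and 6.08 CPM. The part of these genes in the Klrc1 difference was not tested. Klrd1 (272 and 293 CPM), Klre1 (39.4 and 40.9 CPM) and Klrk1 (73.3 and 74.6 CPM) had ratios whose intervals included 1, from 0.957 to 1.21 for Klrd1. That changed without the Prss2-positive cells, where Klrd1 was 1.37-fold (1.20 to 1.56) and Klrk1 1.37-fold (1.06 to 1.76) higher in the tumour library, while the interval of Klre1 (0.925 to 1.88) still included 1. The Ly49 sum, 1.12-fold higher (0.918 to 1.37) over all cells, was then 1.66-fold higher (1.34 to 2.05). Klra1 was then 3.47-fold (2.10 to 5.83), Klra7 2.14-fold (1.58 to 2.91) and Klra3 2.11-fold (1.01 to 4.38) higher, while Klra8 fell from 48 to 0 UMIs. Few cells held these UMIs. Klra7 was found in 20 and 8 cells (6.97% and 6.90%) and Klra1 in 7 and 6. The difference in the share of cells with any Ly49 UMI had an interval (-1.76 to 13.3 points) that included 0. In all, 2 of 9 receptors with at least 20 UMIs were at least 1.5-fold higher and 2 at least 1.5-fold lower, against 10.3% and 7.33% of all genes. Besides Klrc1 these were Klra1, Klra3 and Klra8, each found in no more than 4.85% of cells, and the ratio of Klra3 had an interval that included 1. Klra1 was 2.19-fold higher (1.34 to 3.63) from 7 and 8 cells, and without the limits on other lineages it was lower (log2 ratio -0.62, -0.97 to -0.28). Klra8 had 48 UMIs against 1 UMI, a ratio of 36.8 with an interval from 6.29 to 1482.

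In Cd7/Itgae cells Klra1 was 1.53-fold higher in the tumour library (1.33 to 1.75), and the share of cells with it was 14.3 points higher (4.64 to 23.6). Klra7 was 1.27-fold (1.14 to 1.40) and Klra3 1.47-fold (1.11 to 1.96) higher. Klra4 (38 and 5 UMIs) was 8.12-fold lower (3.19 to 26.4), Klra8 (84 and 23 UMIs) 3.90-fold lower (2.44 to 6.49), and Klrc1 2.02-fold lower (1.51 to 2.73). Thus 1 of 10 receptors was at least 1.5-fold higher and 3 at least 1.5-fold lower, against 7.75% and 7.08% of all genes. The Klra4 and Klra8 UMIs came from few cells, 9 and 2 for Klra4 and 12 and 4 for Klra8. Their tumour levels were no higher than in B cells of that library, at 2.54 against 6.15 CPM for Klra4 and 11.7 against 22.5 CPM for Klra8. The B-cell level of Klra8 came from 5 cells.

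Gamma delta T cells had less Ly49 in the tumour library. The Ly49 sum was 230 and 107 CPM, 2.16-fold lower (1.84 to 2.54), with Klra7 2.29-fold (1.78 to 2.97) and Klra1 1.83-fold (1.40 to 2.39) lower. Klre1 was 1.87-fold lower (1.42 to 2.48) and Klrc1 1.77-fold lower (1.18 to 2.68). Of 10 receptors 7 were at least 1.5-fold lower and 1, Klra4, at least 1.5-fold higher, against 6.08% and 7.73% of all genes. The median log2 ratio of the receptors was -0.89, against 0.02 for all genes. Fewer cells with Ly49 and less Ly49 per cell both enter these sums. Klra4 rested on 2 cells in each library, and its interval (0.857 to 5.33) included 1. Some of the lower genes also rested on few cells, 11 and 5 for Klra3, 6 and 3 for Klra8 and 9 and 6 for Klra9. Klra8, at 9.78 and 2.65 CPM, lay below its level in B cells (15.4 and 22.5 CPM, from 2 and 5 cells). For Klra8, Klra9 and Klrc1 the difference in the share of cells had an interval that included 0. Any Ly49 UMI was found in 43 and 32 cells, so the Ly49 genes are not separate results. Klrk1 was 1.26-fold higher in the tumour library (1.08 to 1.48) and was found in 10.4 points more cells (3.04 to 17.6).

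The Gzmc/Gzmf gate was too small for most comparisons. Klrd1 was 1.34-fold higher in the tumour library (1.15 to 1.55), at 689 and 920 CPM. Klra8 was the 1 of 9 receptors at least 1.5-fold higher (5 and 29 UMIs) and Klra3 the 1 at least 1.5-fold lower (22 and 6 UMIs), against 11.6% and 10.8% of all genes. All 5 Klra8 UMIs of the normal adjacent library came from 1 cell, and the direction of Klra3 turned without the limits on other lineages (log2 ratio 0.18, -0.55 to 0.89).

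**Figure D5:**
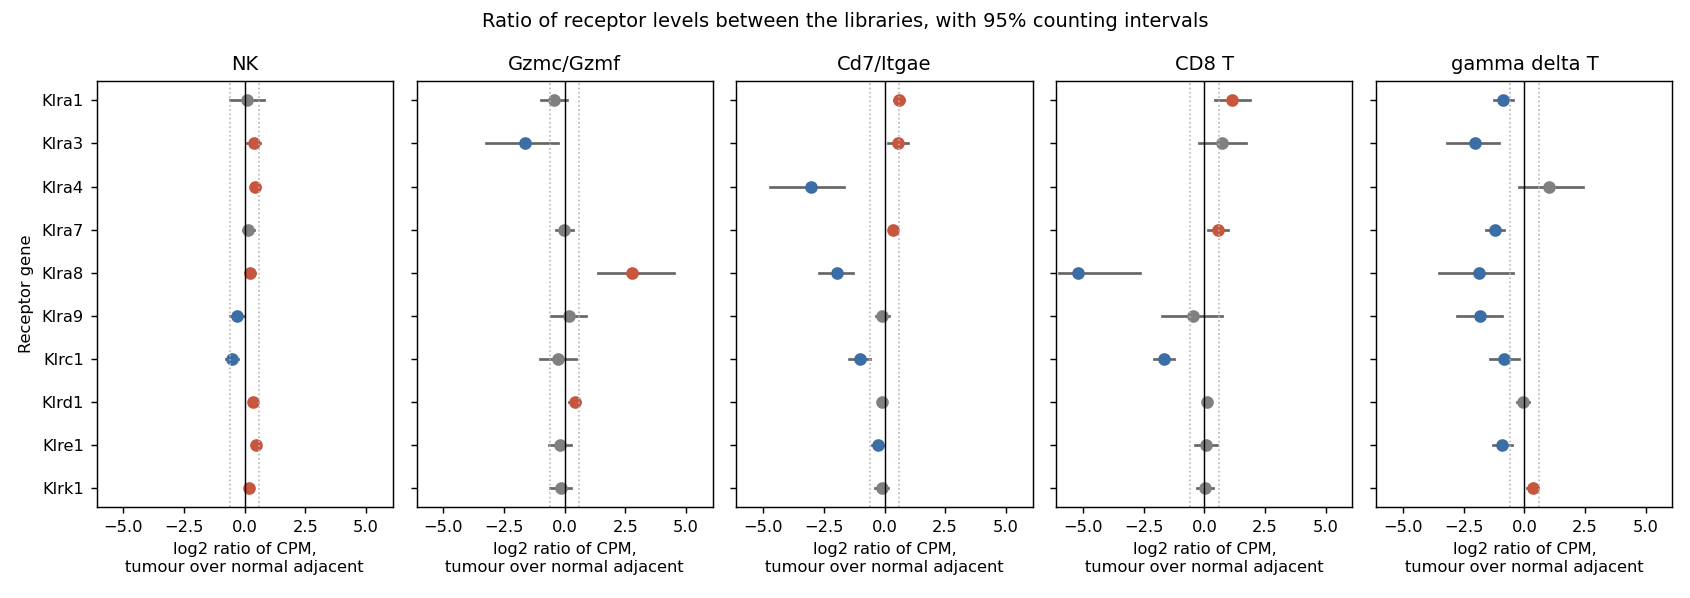
Log2 ratio of CPM, tumour over normal adjacent library, for each receptor with at least 20 UMIs in a gate, with 95% counting intervals (points red where the interval lies above 0, blue where below, grey where it includes 0; dotted lines mark 1.5-fold; the interval of Klra8 in CD8 T cells runs past the axis). All points of the NK gate lie between the dotted lines, and in the gamma delta T gate Klra4 and Klrk1 alone lie above 0.

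Other genes of these pathways were counted for 47 of 48 listed genes. In NK-gated cells, 36 had at least 20 UMIs, of which 1 was at least 1.5-fold higher in the tumour library and none lower, against 8.83% and 5.33% of all genes. That gene was Sh2d1a, which encodes the adaptor SAP, at 24.1 and 48.2 CPM, 2-fold higher (1.42 to 2.82). The adaptors of the activating receptors were slightly lower: Tyrobp was at 2412 and 2171 CPM, 1.11-fold lower (1.07 to 1.16), and Hcst at 537 and 459 CPM, 1.17-fold lower (1.07 to 1.28). The phosphatase genes of inhibitory receptors were higher, Ptpn6 1.46-fold (1.15 to 1.87) and Inpp5d 1.41-fold (1.14 to 1.74). The Qa-1 gene H2-T23, ligand of NKG2A, stood at 230 and 236 CPM.

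Of the 13 other receptors of the gene complex, 9 had at least 20 UMIs in NK-gated cells, and of these Cd69, an early activation marker, alone had an interval above 1 (1.47-fold higher, 1.30 to 1.67). Among 6 other NK receptors, Ncr1 was 1.26-fold higher (1.12 to 1.42), and Cd226 (146 and 143 CPM) had an interval that included 1. The median log2 ratio over the 36 genes was 0.10, and over all genes of the gate 0.07. In Cd7/Itgae cells Klra6 was 1.57-fold higher (1.13 to 2.19), while Klri2, a partner of Klre1, was 3.96-fold lower (2.29 to 7.22). In CD8 T cells 2 of 35 genes were at least 1.5-fold higher and 7 at least 1.5-fold lower, against 10.3% and 7.33% of all genes. In gamma delta T cells these numbers were 1 and 5 of 33, against 7.73% and 6.08%, with Klra5 4.85-fold lower (2.86 to 8.65).

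Across 7 gates in 2 libraries, 14 points that share depth and gating within a library, the gene whose log2(CPM + 1) profile was most like the mean profile of the 10 receptors was Klrb1a (Pearson r 0.980), an NKR-P1 family receptor gene of the same complex. It was followed by Spry2 (0.973), 1700025G04Rik (0.972), Tnfsf12 (0.961), Vegfa, Igsf5 and Pdgfa (each 0.956), and Fcer1g, Emid1 and Trf (each 0.954). Taken one by one, the closest gene was Tyrobp for Klra9 (0.963), Hivep3 for Klra7 (0.976), Fmc1 for Klra4 (0.884), Tubb2a for Klra8 (0.891), Abhd17a for Klra1 (0.916) and Nsmf for Klra3 (0.935). For Klrc1 it was Runx3 (0.975), for Klrd1 Efhd2 (0.989), for Klre1 Klrb1a (0.978) and for Klrk1 Klrb1f (0.977). Among the receptors themselves the profiles of Klra4 and Klra8 had r 0.876 and those of Klra1 and Klra4 r -0.08.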

How the data were processed

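The values are raw UMI counts as deposited by the authors, 1 matrix per library. Per the file headers, Cell Ranger 4.0.0 wrote them. R 4.0.3 and Seurat 3.2.2 stand in the submitters' processing notes. The notes list a human build while all features are mouse genes, and the sources used here give no mouse build, annotation or treatment of reads matching several genes. Cells with at least 200 genes and at most 20% mitochondrial UMIs were kept, with no doublet removal.

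Gates used these minimums: Gzmc and Gzmf 1 UMI each and 5 together; Trdc 2 and a Cd3 sum of 2, without Cd8b1 and Cd4; Cd8a and Cd8b1 1 each and a Cd3 sum of 2, without Trdc and Cd4; Ncr1, or Eomes with Prf1, and a Cd3 sum of at most 1, without Cd8b1 and Cd4; Cd7 with Itgae, without Cd4. Myeloid genes were limited to 0.3% of UMIs, B-cell genes and epithelial or stromal genes each to 0.1%. Each cell entered the first gate it met. The CD4 T gate needed Cd4 and a Cd3 sum of 2 without Cd8b1 and Trdc, and the B gate 3 UMIs and 0.1% of B-cell genes and no Cd3.

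Sums per gate gave CPM with exact Poisson intervals, ratios with exact conditional binomial intervals, shares with Clopper-Pearson intervals, and Newcombe intervals for their differences, all at 95%, in Python 3.11.15 with SciPy 1.17.1. Thinned values are expectations over all draws of 2000 UMIs per cell, shallower cells left out. The ratio step was tested on simulated data for the NK gate, where 96.1% of intervals over 8563 genes held the true ratio. That simulation drew independent Poisson totals, as the interval assumes. It therefore checks the calculation and not the coverage for genes whose UMIs cluster in few cells. The receptors were all named in every gate; pathway genes needed at least 50 UMIs in NK-gated cells, except Klra6, which was named after its values were seen; profile genes needed at least 100 UMIs. The receptors and lists were chosen with earlier results of these data known. The divisions by Eomes, Cd3 and Prss2 and the values without the top cell were added after seeing the data. A further division of gamma delta T cells is not reported here.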

Additional observations from a re-analysis of the deposited data

How the results depend on the processing

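Of 129 alternative values for 11 main results, 109 lay within the counting interval of the value reported, and of 555 for 48 single receptors by gate, 485 did. Some settings could hardly move a value, because they kept nearly all cells. The 314 NK-gated cells of the normal adjacent library became 314 with at least 500 genes and 309 with at most 20000 UMIs. Intervals from few UMIs are also wide, so these counts are not a measure of robustness. No paired analysis was possible because each tissue has 1 library. The Ly49 log2 ratio in NK-gated cells (0.22) was 0.11 on the scale of mean UMIs per cell, -0.07 without lineage limits, 0.42 with stricter limits (each divided by 3) and 0.08 with doubled gate minimums. In Cd7/Itgae cells (0.26) it was 0.13 with stricter limits and 0.38 with doubled minimums. In gamma delta T cells (-1.11) it was -1.34 at 2000 UMIs per cell, -0.61 without limits and -1.45 with doubled minimums. Klrk1 in gamma delta T cells (0.34) was 0.63 with stricter limits. Klrc1 in CD8 T cells (-1.67) stayed between -2.04 and -1.45 over 11 settings, and was -1.53 without Prss2-positive cells and -1.75 without the top cell of each library, both chosen after seeing the data, as was the Eomes division. The Klra4 and Klra8 share in NK-gated cells was 54.8% and 58.1% with Eomes only. In Cd7/Itgae cells of the tumour library it was 3.75% without limits and 2.95% with gates that may overlap. The Klrc1 difference between Ly49-positive and negative NK-gated cells was -14.9 and -10.2 points at 2000 UMIs, -7.52 and -5.25 at 1000 UMIs, and -60.1 (-73.7 to -22.2) and -16.3 (-49.0 to 9.04) in Eomes-positive cells, of which 129 of 136 and 104 of 112 had Ly49, leaving few for the comparison. Without lineage limits the log2 ratio changed sign for Klra3 (-0.03), Klra8 (-0.01) and Klrk1 (-0.08) in NK-gated cells, Klra3 in Gzmc/Gzmf cells (0.18), Klre1 in Cd7/Itgae cells (0.00), and Klra1 (-0.62) and Klra7 (-0.07) in CD8 T cells. The causes were not tested.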

Other observations

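CD4 T cells (95 and 77 cells), which belong to none of the 5 gates, held little of these receptors in the tumour library. Klrd1 had a UMI in 21.1% and 14.3% of them and Klrk1 in 17.9% and 11.7%. The Ly49 genes together gave 61 and 7 UMIs there.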
